A study of Mus musculus with 8 samples.

Results

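Acetylation of histone H4 was compared between bone-marrow-derived macrophages of C57BL/6 mice given 25HC and then PAM3 and macrophages given 25HC alone. The comparison takes 4 of the 8 libraries of the series, 2 in each group, 1 from mouse A and 1 from mouse B. 25HC is 25-hydroxycholesterol, an oxysterol, and PAM3 is the synthetic lipopeptide PAM3CSK4. The other 4 libraries, PAM3 without 25HC and untreated cells from the same 2 mice, give the response in cells that had no added oxysterol. All 8 libraries share the genotype and cell type, and the antibody was a rabbit polyclonal against acetyl-H4. The stimulation time in the labels has no unit and reads 18 in every library with PAM3 and 0 in every library without it, so an effect of PAM3 and one of that time cannot be told apart. The labels do not state a dose or duration of 25HC. With 2 mice, p-values measure the spread between single libraries.

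Bone-marrow-derived macrophages are grown from marrow precursors in culture. PAM3CSK4 mimics a bacterial lipoprotein and is sensed by TLR2 with its partner TLR1. The receptors signal through the adaptor MyD88 to NF-κB and AP-1 transcription factors, which switch on genes of cytokines, chemokines and antimicrobial proteins. Stimulated macrophages make 25HC themselves with the enzyme encoded by Ch25h, and the oxysterol activates the nuclear receptors LXR and holds back the SREBP factors that drive cholesterol synthesis. Acetylated H4 marks active promoters and enhancers, and over strongly transcribed genes the mark can spread into the gene body.

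Members were all protein-coding genes and all 1 kb bins of chromosomes 1 to 19. Each gene was measured by its called length, which sums the bp that the authors' peaks of a library cover in the gene body and 5000 bp on either side. Of 21887 protein-coding genes on GRCm38, 14589 averaged 500 bp or more across the 8 libraries and were tested. The 25HC then PAM3 libraries held 49751 and 52728 peaks, and the 25HC libraries 48446 and 50079. Peaks covered 63.54 and 69.63 Mb after 25HC then PAM3, against 59.9 and 64.64 Mb after 25HC, a difference of 4.31 Mb within the spread of the libraries (two-sided exact permutation test, p = 0.667, where 0.333 is the smallest p that 2 against 2 libraries allow). Peaks of 4 kb or more numbered 460 and 605 against 299 and 427, and the median −log10 q of the peaks was 5.41 and 5.97 against 6.38 and 7.41. The 25HC then PAM3 libraries were thus higher in long peaks and lower in peak significance than both 25HC libraries, and the part of either in the gene results was not tested. Shared bp were taken as a percentage of the bp covered in either library of a pair. The 2 libraries of 25HC then PAM3 shared 63.8% and those of 25HC shared 66.7%, whereas pairs across the groups shared 49.7% to 50.4%.

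The promoters of 4 genes that rose are shown as examples of a change at a start site, a new peak or a peak there that became longer. The 250 bases before each RefSeq start site are shown 5′ to 3′ on the gene's strand (GRCm38.p6), with matches to the NF-κB consensus on either strand in capitals.
Lcn2 promoter, minus strand of chr2:32387740-32387989: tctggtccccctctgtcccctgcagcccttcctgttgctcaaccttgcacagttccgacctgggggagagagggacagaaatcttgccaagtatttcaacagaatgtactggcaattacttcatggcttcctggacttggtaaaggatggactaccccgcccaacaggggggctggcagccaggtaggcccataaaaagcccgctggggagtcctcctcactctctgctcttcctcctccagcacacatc
Camp promoter, minus strand of chr9:109849457-109849706: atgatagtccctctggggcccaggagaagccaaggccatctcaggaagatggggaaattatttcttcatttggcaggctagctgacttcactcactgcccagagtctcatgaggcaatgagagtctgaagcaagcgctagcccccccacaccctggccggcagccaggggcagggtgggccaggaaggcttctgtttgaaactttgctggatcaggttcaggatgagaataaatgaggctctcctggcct
Cxcl2 promoter, plus strand of chr5:90903649-90903898: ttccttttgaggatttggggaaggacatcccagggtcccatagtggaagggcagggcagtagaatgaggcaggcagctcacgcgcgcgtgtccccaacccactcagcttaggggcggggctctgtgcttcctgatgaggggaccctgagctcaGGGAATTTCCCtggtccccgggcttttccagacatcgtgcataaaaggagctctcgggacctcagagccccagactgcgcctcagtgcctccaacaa
Sod2 promoter, plus strand of chr17:13007589-13007838: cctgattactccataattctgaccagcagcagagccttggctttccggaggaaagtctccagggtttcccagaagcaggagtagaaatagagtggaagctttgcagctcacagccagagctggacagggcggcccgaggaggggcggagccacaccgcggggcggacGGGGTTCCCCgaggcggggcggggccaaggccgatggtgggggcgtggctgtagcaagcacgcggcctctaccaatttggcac
The bases shown for Cxcl2 and Sod2 hold a match and those shown for Lcn2 and Camp hold none, and Camp has one 35 bases after the start, beyond the bases shown. No match says only that those letters are not in the window. The Lcn2 and Camp promoters lay inside a peak in both 25HC then PAM3 libraries and had no peak in either 25HC library. The Cxcl2 promoter was covered in both 25HC then PAM3 libraries and in 25HC B and had no peak in 25HC A, and the Sod2 promoter was covered in all 4 libraries.

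**Figure D1:**
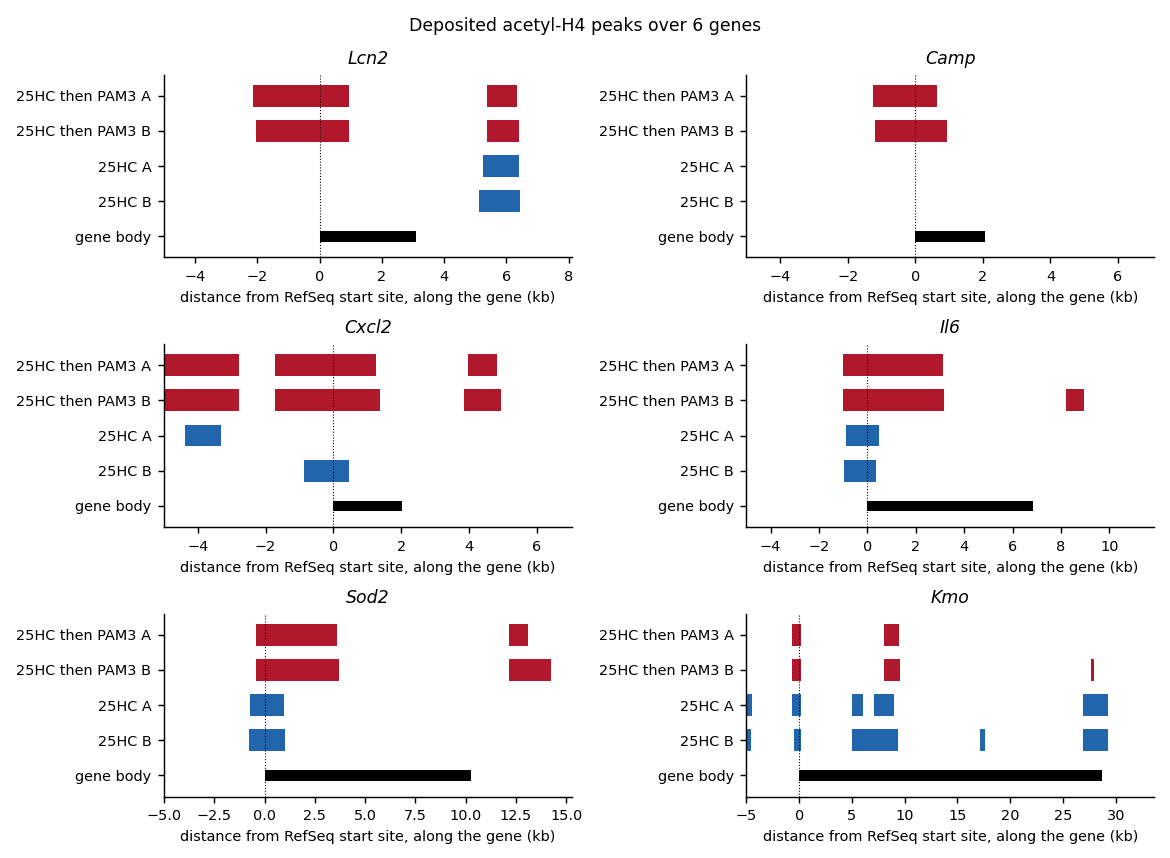
Peaks of each library (rows) over Lcn2, Camp, Cxcl2, Il6, Sod2 and Kmo, plotted by distance from the RefSeq start site in kb along the gene, with 5 kb on either side of the gene body in black. Over Camp both 25HC then PAM3 libraries have a peak and both 25HC libraries have none, over Sod2 and Il6 the peak at the start extends further into the gene after 25HC then PAM3, and over Kmo peaks before, inside and at the far end of the gene are shorter or missing.

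After 25HC then PAM3, acetylation was called over longer stretches at Lcn2 and Camp, which encode antimicrobial proteins, Fpr1 and Fpr2, which encode formyl peptide receptors, the chemokine gene Cxcl2, the cytokine gene Il12a, the antioxidant gene Sod2 and the phospholipase gene Pla2g4a. It was called over shorter stretches at the tryptophan-degrading enzyme gene Kmo, the scavenger receptor gene Stab2, the complement C1q genes and the cell cycle genes Tk1 and Plk1. In all, 398 of 14589 genes rose (2.73%) and 335 fell (2.3%), by limma with Benjamini-Hochberg adjusted p under 0.05. The median log2 change of called length plus 500 bp was 1.11 over the genes that rose and −1.08 over those that fell. Without regard to size, 28.2% of genes had both 25HC then PAM3 libraries above both 25HC libraries, and 25.3% had both below. With the mouse as a block 165 genes rose and 116 fell, and with only peaks of −log10 q 5 or more, or the same covered length in each library, 0 genes passed by limma, with 1516 and 1772 genes at unadjusted p under 0.05. In those peak sets 305 of 370 and 386 of 395 of the risen genes that could be tested kept their sign, and 261 of 308 and 321 of 328 of the fallen genes. Of the 73 called genes described by name, 52 passed with 25HC then PAM3 A left out, 44 with 25HC then PAM3 B left out, 32 with 25HC A left out and 27 with 25HC B left out, 54 without either untreated library and 65 without either PAM3 library, all with the same direction.

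Of 24 antimicrobial and acute-phase genes measured, 9 rose, 0 fell and 15 did not pass, with a median log2 change of 0.48 against −0.02 over all genes, and 16 had both 25HC then PAM3 libraries above both 25HC libraries, against 28.2% of all genes. Lcn2 (chromosome 2, 32384637 to 32387739) encodes lipocalin, which starves bacteria of iron. It had 4045 and 4015 bp of called length in the 25HC then PAM3 libraries of mice A and B, against 1140 and 1346 bp in the 25HC libraries. The groups stood well apart, with a log2 change of 1.36 ± 0.10 (SE; limma adjusted p = 0.00748). The whole difference lay at the start of the gene, where peaks of 3081 and 2997 bp spanned the promoter printed above and the 25HC libraries had none, while a peak beyond the other end of the gene was called in all 4. Camp, the precursor of the cathelicidin peptide, had 1890 and 2133 bp after 25HC then PAM3 and 0 bp in both 25HC libraries (limma adjusted p = 0.0106). In each 25HC then PAM3 library that length was a single peak over the start site.

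The serum amyloid genes of chromosome 7, acute-phase proteins carried on lipoproteins, rose as a block of neighbours. Saa1 had 4110 and 4138 bp after 25HC then PAM3, against 194 and 251 bp after 25HC. Saa2 had 2453 and 2927 bp against 0 bp in both 25HC libraries. Saa3, the form that macrophages make, had 5319 and 4561 bp against 2164 and 2215 bp. Their limma adjusted p values were 0.0129, 0.0125 and 0.0197, and Saa4 rose as well, with 4001 and 4167 bp against 1088 and 1154 bp (adjusted p = 0.00593). The windows of neighbouring Saa genes overlap, and Saa1 and Saa2 are near-identical copies whose reads may not be separable, so these are not 4 independent observations.

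Fpr1 and Fpr2, receptors for the formylated peptides that bacteria shed, lie side by side on chromosome 17 with overlapping windows. Fpr1 had 10441 and 10349 bp after 25HC then PAM3, against 4335 and 4411 bp after 25HC, and Fpr2 had 7482 and 9065 bp against 1669 and 2309 bp. Both genes rose, by log2 1.14 ± 0.10 and 1.80 ± 0.16 (SE; limma adjusted p = 0.00929 for each). Cybb, the catalytic subunit of the phagocyte NADPH oxidase, had 14496 and 17179 bp against 7434 and 8443 bp (limma adjusted p = 0.0271). Acod1, which makes the antibacterial metabolite itaconate, had 5522 and 5540 bp against 1831 and 3056 bp (limma adjusted p = 0.0429, and 0.0796 once mouse was a block). Every one of these genes had both 25HC then PAM3 libraries above both 25HC libraries.

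Lcn2 and Camp are also granule genes of neutrophils, so neutrophil markers were read beside them. Of 12 such markers, 7 had a peak in some library and Cxcr2, Ngp, Ly6g, Retnlg and Ms4a3 were at 0 in all 4 libraries. The summed called length of the 12 was 15813 and 16200 bp after 25HC then PAM3, against 19435 and 18776 bp after 25HC, so it was lower in the group where Lcn2 and Camp were higher. The windows of Elane and Prtn3 among the 12 overlap, so peaks in the overlap count for both genes in the sum. None of the 6 markers tested rose or fell. Of these 6, 3 had both 25HC then PAM3 libraries below both 25HC libraries, against 25.3% of all genes, and 1 had both above, against 28.2%. In bulk samples, fewer cells of a type and less of the mark per cell cannot be told apart. All 10 macrophage markers had peaks, with 78898 and 90659 bp in sum against 66094 and 74174 bp. Adgre1, with 13703 and 14755 bp against 4242 and 5210 bp, and Cd14 rose among them. The median log2 change of the 10 was only 0.04. Both 25HC then PAM3 libraries lay above both 25HC libraries in 5 of them and below in 2.

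Of 26 genes in the cytokine list, 2 rose, 0 fell and 24 did not pass. The list leaves out Il4, which fell to 0 bp in both 25HC then PAM3 libraries. Without regard to size, 19 of the 26 had both 25HC then PAM3 libraries above both 25HC libraries, against 28.2% of all genes. The median log2 change of the list was 0.58. Il12a, which encodes the p35 subunit shared by interleukins that steer T cells, had 3129 and 3184 bp after 25HC then PAM3 and 0 bp in both 25HC libraries (limma adjusted p = 0.0137). The length came from a single peak over the start site. Il6, a cytokine that drives fever and the acute-phase response, had 4166 and 4902 bp against 1369 and 1324 bp, a log2 change of 1.42 ± 0.22 (SE; limma adjusted p = 0.0279, and 0.0581 once mouse was a block). Its peak at the start measured 4166 and 4164 bp against 1369 and 1324 bp, so a peak present in both groups extended into the gene.

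Other cytokine genes with a central place in the TLR response did not pass. Tnf had 3971 and 3934 bp after 25HC then PAM3, against 2766 and 2761 bp after 25HC, and its window overlaps those of Lta and Ltb (log2 0.42, limma adjusted p = 0.0664). The groups of Tnf did not overlap, but the sign turned to −1.03 with only peaks of −log10 q 5 or more. Il1b had 5861 and 6554 bp against 3318 and 4984 bp, and Il12b, the p40 partner of p35, had 2360 and 4217 bp against 3334 and 4834 bp. Il10, an inhibitory cytokine, had 2718 and 2594 bp against 3751 and 4019 bp. Their limma adjusted p values were 0.356, 0.523 and 0.105.

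Among chemokine genes 3 of 18 measured rose, 0 fell and 15 did not pass, with a median log2 change of 0.48, and 12 had both 25HC then PAM3 libraries above both 25HC libraries, against 28.2% of all genes. Cxcl2 (chromosome 5, 90903899 to 90905938) encodes a neutrophil attractant. It had 6074 and 6446 bp after 25HC then PAM3, against 1076 and 1353 bp after 25HC, a log2 change of 1.96 ± 0.15 (SE; limma adjusted p = 0.00844). The promoter printed above sat in peaks of 2997 and 3118 bp after 25HC then PAM3 and in a peak of 1323 bp in 25HC B. Further peaks of 852 and 1105 bp lay 3984 and 3854 bp beyond the start, where the 25HC libraries had none. The neighbouring attractant gene Cxcl1 had 1876 and 3633 bp against 1718 and 1108 bp and did not pass (limma adjusted p = 0.23). Ccl7, a monocyte attractant, had 5187 and 6274 bp against 2961 and 2640 bp (limma adjusted p = 0.0415, and 0.0791 with the block). Ccl8, another ligand for monocytes, had 1330 and 1432 bp and 0 bp in both 25HC libraries (limma adjusted p = 0.0257, and 0.0588 with the block).

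Of the TLR sensing and NF-κB lists, upstream of these products, 3.6% of genes rose in each, against 2.73% of all genes. In the list of TLR sensing and MyD88 genes 1 of 28 rose, 0 fell and 27 did not pass, with a median log2 change of 0.18, and 14 had both 25HC then PAM3 libraries above both 25HC libraries, against 28.2% of all genes. The one that rose was Cd14, a co-receptor that hands bacterial lipids to TLR4 and TLR2, with 5240 and 6774 bp after 25HC then PAM3 against 2871 and 2837 bp after 25HC. The log2 change was 0.92 (limma adjusted p = 0.0249, and 0.0519 with the block) and −0.02 with only peaks of −log10 q 5 or more. Tlr2, the receptor for PAM3 itself, had 4080 and 4034 bp against 2640 and 2285 bp, apart in all 4 libraries without passing (log2 0.60, limma adjusted p = 0.0793). Among NF-κB subunits and their feedback genes 1 of 28 rose, 0 fell and 27 did not pass, with a median of 0.15. In 17 both 25HC then PAM3 libraries lay above both 25HC libraries, against 28.2% of all genes. The one that rose was Nfkbia, which encodes the inhibitor that NF-κB induces against itself, with 5547 and 5370 bp against 2510 and 2773 bp (log2 0.90, limma adjusted p = 0.0143, with a change of 0.10 among peaks of −log10 q 5 or more). Rel, an NF-κB subunit gene, had the largest change of that list without passing, with 7076 and 11955 bp against 2981 and 2379 bp (log2 1.59, limma adjusted p = 0.0678). None of the 37 cytokine and chemokine receptor genes and none of the 30 inducible transcription factor genes passed (limma), and their medians were −0.06 and −0.03.

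Of 26 genes of inflammasomes and cell death, 5 rose (19.2%, against 2.73% of all genes), 0 fell and 21 did not pass. The median log2 change was 0.12. In 8 of the 26 both 25HC then PAM3 libraries lay above both 25HC libraries, near the 28.2% of all genes. Pycard encodes ASC, the adaptor of inflammasomes. It had 2178 and 2078 bp after 25HC then PAM3, in 1 peak over the start site, and 0 bp in both 25HC libraries (limma adjusted p = 0.00456), whereas the libraries without 25HC had 1954 and 2281 bp with PAM3 and 1555 and 1656 bp in untreated cells. Bcl2a1a, Bcl2a1b and Bcl2a1d are near-identical genes for a survival protein that NF-κB induces. Bcl2a1d had 12144 and 12027 bp against 4640 and 5003 bp, Bcl2a1b 11851 and 12297 bp against 6004 and 6133 bp, and Bcl2a1a 7269 and 7402 bp against 1001 and 861 bp. Reads of the 3 copies may not be separable, so the calls (limma adjusted p = 0.0142, 0.0224 and 0.0244) are uncertain as to which copy they come from. Naip5, a flagellin sensor with close copies of its own, had 4205 and 3368 bp against 1435 and 1550 bp (limma adjusted p = 0.0249, and 0.0529 with the block).

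Genes of lipid mediators and immune metabolism moved in both directions, with 4 of 29 rising, 2 falling and 23 not passing. That is 13.8% rising and 6.9% falling, against 2.73% and 2.3% of all genes. The median log2 change was 0.23. In 18 both 25HC then PAM3 libraries lay above both 25HC libraries, against 28.2% of all genes, and in 6 below, against 25.3%. Pla2g4a, the cytosolic phospholipase that frees arachidonic acid, had 18166 and 20912 bp after 25HC then PAM3, against 6044 and 7209 bp after 25HC, in 13 and 15 peaks against 6 and 9. Its log2 change was 1.47 ± 0.14 (SE; limma adjusted p = 0.0102). Ptgs2, the inducible enzyme that turns arachidonic acid into prostaglandins, had 2576 and 3689 bp and 0 bp in both 25HC libraries (limma adjusted p = 0.0493, and 0.0565 with the block). Hif1a, the regulator of glycolysis in stimulated macrophages, had 6602 and 7365 bp against 2762 and 3275 bp (limma adjusted p = 0.0131). Upp1, a uridine phosphorylase, had 4055 and 4125 bp and 0 bp in both 25HC libraries (limma adjusted p = 0.0142). Kmo (chromosome 1, 175632193 to 175660853), which breaks down the tryptophan product kynurenine, had 2273 and 2688 bp against 6634 and 8269 bp. Its log2 change was −1.44 ± 0.14 (SE; limma adjusted p = 0.0106), and the short peak at its start was called in all 4 libraries. Ltc4s, which makes leukotriene C4, had 1714 and 2577 bp against 4654 and 4717 bp (limma adjusted p = 0.0469, and 0.0679 with the block), with a change of 0.79 in place of −1.01 when only peaks of −log10 q 5 or more were used.

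Of 24 NRF2 and antioxidant genes, 2 rose (8.3%, against 2.73% of all genes), 1 fell (4.2%, against 2.3%) and 21 did not pass. The median log2 change was 0.12. In 9 both 25HC then PAM3 libraries lay above both 25HC libraries, against 28.2% of all genes, and in 3 below, against 25.3%. Sod2 (chromosome 17, 13007839 to 13018119), the mitochondrial superoxide dismutase and a known NF-κB target, had 5019 and 6204 bp after 25HC then PAM3, against 1714 and 1769 bp after 25HC. The log2 change was 1.42 ± 0.11 (SE; limma adjusted p = 0.00748). The peak over its promoter measured 4059 and 4124 bp against 1714 and 1769 bp, reaching from the start into the gene. The long peak of 25HC then PAM3 B had a −log10 q of 3.5, and with only peaks of at least 5 the change was −0.47. Prdx1, a peroxide-reducing enzyme, had 6109 and 4354 bp against 1530 and 1742 bp (limma adjusted p = 0.0257, and 0.0581 with the block). Gpx1, a glutathione peroxidase, had 1944 and 1915 bp against 3772 and 3813 bp (log2 −0.85, limma adjusted p = 0.0141).

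**Figure D2:**
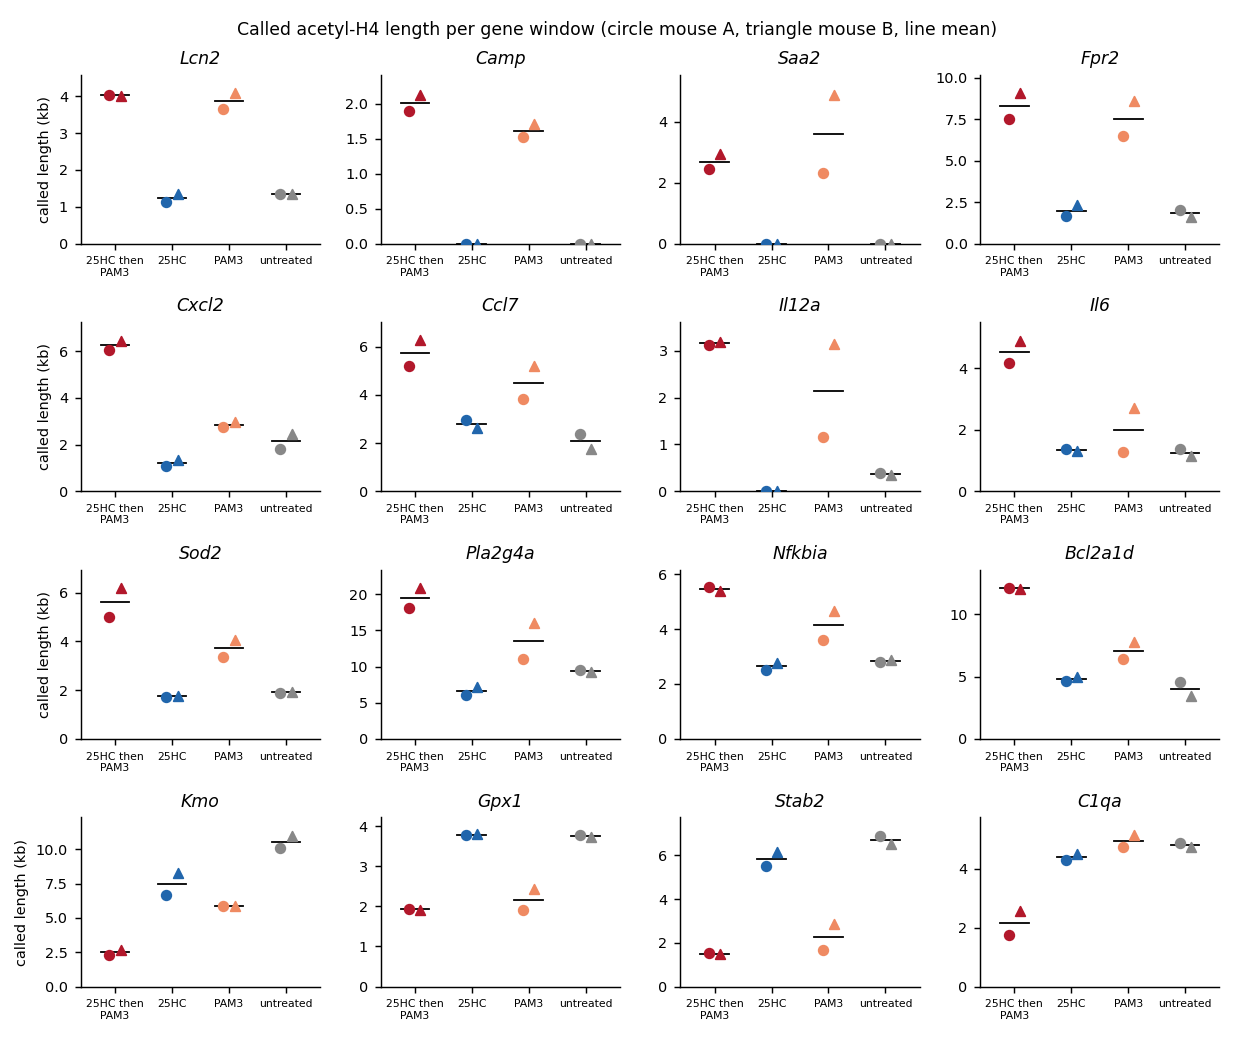
Called acetyl-H4 length in kb (vertical axes, each from 0) over 16 gene windows in the 25HC then PAM3, 25HC, PAM3 and untreated groups, with a circle for mouse A, a triangle for mouse B and a line for the mean of 2 libraries. In the upper 3 rows both 25HC then PAM3 libraries lie above both 25HC libraries, in the lowest row (Kmo, Gpx1, Stab2, C1qa) below them, and over C1qa the PAM3 libraries without 25HC, with 4736 and 5136 bp, lie beside the untreated ones.

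Among lectins and scavenger receptors 4 of 26 rose (15.4%, against 2.73% of all genes), 0 fell and 22 did not pass. The median log2 change was 0.24. In 13 both 25HC then PAM3 libraries lay above both 25HC libraries, against 28.2% of all genes, and in 4 below, against 25.3%. Marco, a scavenger receptor for bacteria, had 2347 and 1392 bp after 25HC then PAM3 and 0 bp in both 25HC libraries (limma adjusted p = 0.019). Cd36, which takes up oxidised lipids and helps TLR2 with some ligands, had 21986 and 25994 bp against 14197 and 14809 bp (limma adjusted p = 0.0257, and 0.0565 with the block). Clec4a2, a lectin receptor, had 3942 and 5867 bp against 1207 and 1463 bp (limma adjusted p = 0.0357). Trem1, an amplifier of TLR signals, had 5760 and 6291 bp against 1875 and 2008 bp (limma adjusted p = 0.0385, and 0.0684 with the block), and its change turned from 1.39 to −2.18 with only peaks of −log10 q 5 or more. Adgre1, the gene of the macrophage surface protein F4/80, had 13703 and 14755 bp against 4242 and 5210 bp and was the single called gene of 26 in the list of resting macrophage identity (log2 1.48 ± 0.14, SE; limma adjusted p = 0.0106). Cd1d1, which presents lipids to natural killer T cells, was the single called gene of 17 in the antigen presentation list, with 4869 and 4633 bp against 1807 and 1485 bp (limma adjusted p = 0.0161).

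The sterol lists, closest to the action of 25HC, had medians near the −0.02 of all genes. Of 22 LXR targets 2 rose (9.1%, against 2.73% of all genes), 0 fell and 20 did not pass, with a median log2 change of −0.05. In 7 both 25HC then PAM3 libraries lay above both 25HC libraries, against 28.2% of all genes, and in 8 below, against 25.3%. Smpdl3a, a phosphodiesterase gene, had 2973 and 2952 bp after 25HC then PAM3, against 1598 and 1599 bp after 25HC. Mylip, which encodes the ubiquitin ligase IDOL, had 6594 and 6364 bp against 3390 and 2548 bp. Both calls ended with the mouse as a block (limma adjusted p = 0.0275 for Smpdl3a and 0.0478 for Mylip, and 0.0565 and 0.0856 with it). Abca1, the cholesterol exporter, had 15164 and 16598 bp against 9690 and 13413 bp and did not pass (limma adjusted p = 0.192). None of 24 genes of cholesterol synthesis and uptake passed (limma), with a median of −0.02. By the same count of libraries, 6 of them lay above and 7 below. Neither list holds Abcg8, a subunit of a sterol exporter, which fell. It had 0 bp in both 25HC then PAM3 libraries, against 1767 and 1858 bp after 25HC (limma adjusted p = 0.00456), and its window overlaps that of Lrpprc. Ch25h had 1881 and 0 bp against 2271 and 1826 bp, so 1 library without a peak set its value (limma adjusted p = 0.547). Nos2, the inducible nitric oxide synthase, had 2307 and 4351 bp against 2019 and 1997 bp and did not pass (limma adjusted p = 0.523).

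In the list of complement, Fc and phagocytic receptors 0 of 22 rose, 4 fell and 18 did not pass, and 3 of the 4 were neighbouring C1q genes. Regardless of size, 10 had both 25HC then PAM3 libraries below both 25HC libraries, against 25.3% of all genes. Another 7 had both above, against 28.2%. The median log2 change of the list was −0.06, against −0.02 over all genes. Stab2, a scavenger receptor that clears hyaluronan and dying cells, had 1543 and 1478 bp after 25HC then PAM3, against 5530 and 6168 bp after 25HC, a log2 change of −1.68 ± 0.15 (SE; limma adjusted p = 0.00974). Of 4 intragenic peaks called in both 25HC libraries, 1 was called after 25HC then PAM3. The C1q genes encode the chains of the first complement component and lie next to each other with overlapping windows, so they share peaks. C1qa had 1739 and 2546 bp against 4278 and 4494 bp, C1qb 2327 and 2278 bp against 3845 and 3466 bp, and C1qc 2966 and 3927 bp against 6407 and 5857 bp. Their limma adjusted p values were 0.0266, 0.0464 and 0.0412, which mouse as a block brought to 0.0587, 0.0609 and 0.0783, and with only peaks of −log10 q 5 or more the changes of C1qa and C1qc turned to 0.92 and 0.05.

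Of 29 cell cycle genes 0 rose, 2 fell (6.9%, against 2.3% of all genes) and 27 did not pass, with a median log2 change of −0.15. In 12 both 25HC then PAM3 libraries lay below both 25HC libraries, against 25.3% of all genes, and in 6 above, against 28.2%. Tk1, a thymidine kinase of the S phase, had 1357 and 2081 bp after 25HC then PAM3, against 4538 and 4140 bp after 25HC (limma adjusted p = 0.0218, and 0.0518 with the block). Plk1, a mitotic kinase, had 935 and 1081 bp against 2105 and 1991 bp (limma adjusted p = 0.0464, and 0.0716 with the block), and its change turned from −0.78 to 0.93 with only peaks of −log10 q 5 or more and to 0.46 with the same covered length. Markers of other cell types were lower in part. The lymphocyte gene Cd2 had 0 bp in both 25HC then PAM3 libraries, against 962 and 820 bp after 25HC, and Siglech, a lectin of plasmacytoid dendritic cells, had 1854 and 1804 bp against 3559 and 4120 bp (limma adjusted p = 0.047 for Cd2 and 0.0313 for Siglech, and 0.0825 and 0.0667 once mouse was a block). In sum, 16 lymphocyte markers had 13677 and 17794 bp against 21229 and 25124 bp, and 12 dendritic cell markers had 66208 and 68061 bp against 71910 and 78176 bp. Pax5, Cd8a, Ncr1, Cd3e and Gzmb were at 0 in all 4 libraries, as was Cd209a. The part of other cells in the falls was not tested.

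**Figure D3:**
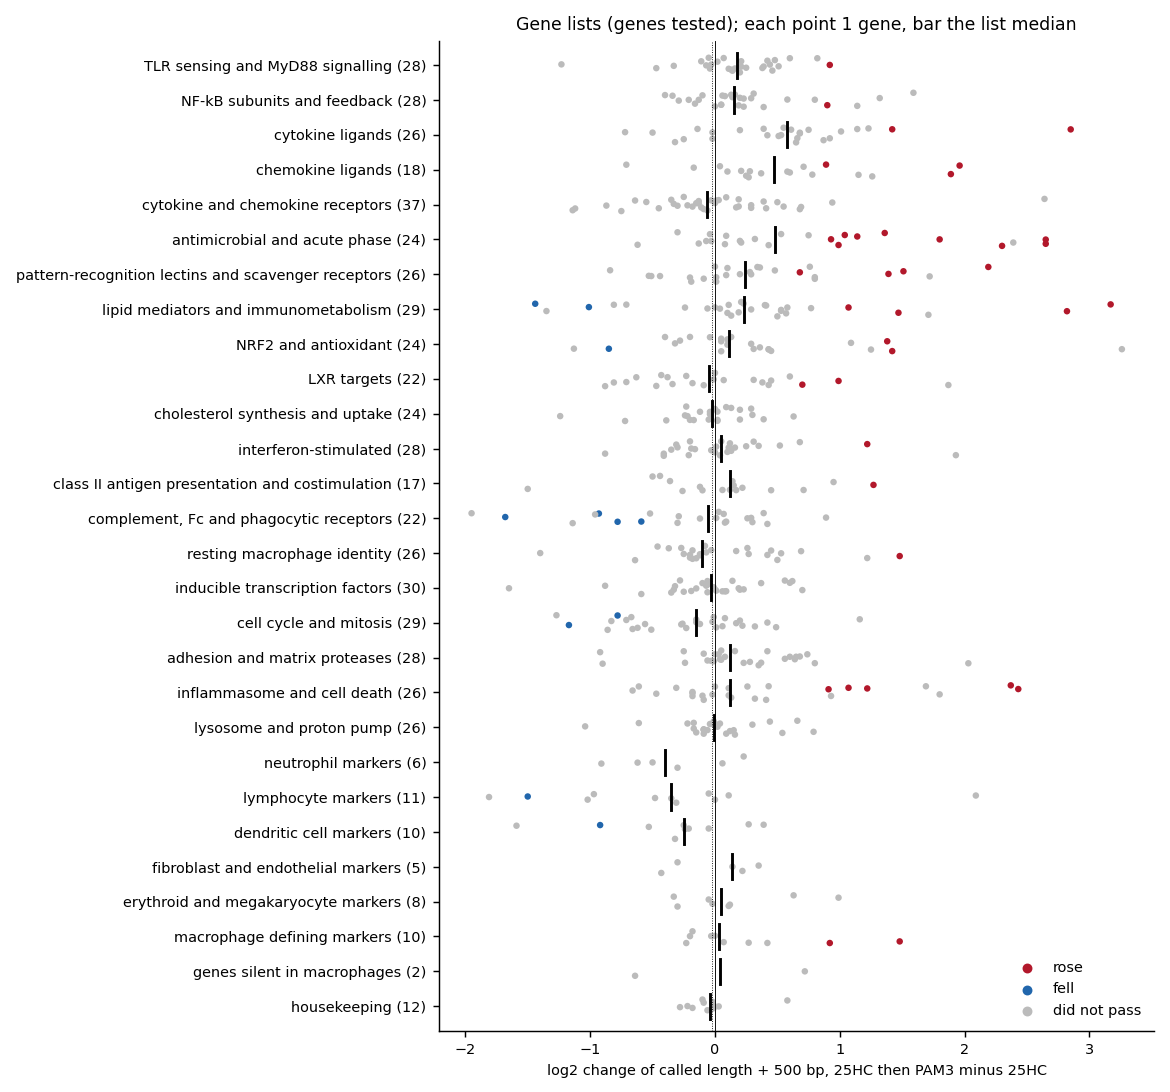
Log2 change of called length plus 500 bp, 25HC then PAM3 minus 25HC (horizontal axis), for each tested member of the 28 gene lists, with genes that rose in red, genes that fell in blue, the others in grey, the list median as a bar and the median of all genes as a dotted line. The medians of the cytokine, chemokine and antimicrobial lists lie at 0.58, 0.48 and 0.48, those of the housekeeping and cholesterol lists at −0.04 and −0.02.

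The genes with the smallest p included several with no known part in TLR responses. By p, the rises were led by Jph4, Zp3, Nhs, Pycard, Saa4, Slamf6, Lig1, Lcn2, Slc6a12 and Sod2. Jph4, a junctophilin of excitable cells, had 4036 and 3579 bp after 25HC then PAM3 and 0 bp in both 25HC libraries (limma adjusted p = 0.00291). Zp3, an egg coat protein gene, had 3058 and 3631 bp against 511 and 549 bp, and Nhs, an actin-remodelling gene of the X chromosome, had 3045 and 2678 bp against 0 bp in both (limma adjusted p = 0.00456 for each). Slamf6, an immune cell receptor, had 3531 bp in both 25HC then PAM3 libraries against 1121 and 1167 bp. Lig1, the ligase that joins replicated DNA, had 6733 and 6918 bp against 1164 and 1636 bp, and the betaine transporter gene Slc6a12 had 6599 and 6426 bp against 1650 and 1660 bp (limma adjusted p = 0.00726 to 0.00748 for the 3). These 10 calls held with the mouse as a block and without any single library, but with only peaks of −log10 q 5 or more the changes of Slc6a12 and Sod2 were −0.38 and −0.47 and that of Nhs was 0.10, in place of 2.72. The change of Nhs was 0.06 with the same covered length throughout.

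Falls with the smallest p were often windows left without any peak. Lrrc14b had 0 bp in both 25HC then PAM3 libraries, against 2810 and 3177 bp after 25HC, and Map3k7cl 0 bp against 3355 and 3420 bp (limma adjusted p = 0.00291 for each). Il4, a cytokine of type 2 immunity, had 0 bp against 2018 and 2191 bp, and its window overlaps that of Kif3a. Abcg8, a subunit of a sterol exporter, had 0 bp against 1767 and 1858 bp. Ranbp6 had 0 bp against 2959 and 2764 bp, Yars2, a mitochondrial tRNA synthetase gene, 0 bp against 1804 and 1860 bp, and Pgap3, a remodeller of lipid anchors, 0 bp against 1566 and 1697 bp. The remaining 3 kept some peaks. Rab19, a small GTPase gene, had 552 and 595 bp against 2743 and 2680 bp, C1qtnf1 249 and 331 bp against 3582 and 3769 bp, and Plxna4, a semaphorin co-receptor, 3251 and 3576 bp against 9106 and 10126 bp. These calls too held with the block and without any single library (limma adjusted p = 0.00456 to 0.00728 after the first pair), and the changes of Map3k7cl and Il4 turned to 0.10 each with only peaks of −log10 q 5 or more. In all, 68 of the 335 fallen genes were at 0 in both 25HC then PAM3 libraries and 44 of the 398 risen genes at 0 in both 25HC libraries. Libraries at 0 show almost no spread, so the p of such genes can be too small, and the size of a log2 change is then set by the added 500 bp.

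By size, other large rises were those of Il12a, Upp1, Abca13 and Adcy2. Abca13, a lipid transporter gene, had 6322 and 7867 bp after 25HC then PAM3, against 0 and 315 bp after 25HC. Adcy2, an adenylate cyclase, had 5897 and 8580 bp against 244 and 592 bp (limma adjusted p = 0.0161 for Abca13 and 0.0232 for Adcy2). The largest falls besides Map3k7cl were Slc7a13, an amino acid transporter gene with 0 bp against 8022 and 8074 bp, Ncam2, a neural adhesion gene with 0 bp against 6368 and 4635 bp, and Arpp21 with 0 bp against 2711 and 5006 bp. Plb1, a phospholipase gene, had 0 and 219 bp against 3434 and 5846 bp, and Fam110b 1218 and 0 bp against 7432 and 7543 bp. The limma adjusted p values of these 5 ran from 0.00929 to 0.0433, and that of Fam110b was 0.0773 with the block. The change of Slc7a13 turned from −4.12 to 0.10 with only peaks of −log10 q 5 or more. Several of these genes are long and are known from neurons rather than macrophages.

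The same 2 mice gave PAM3 and untreated libraries without 25HC, and most called genes moved the same way there. Of the 398 genes that rose after 25HC, 363 had a change of the same sign without it, and 281 (70.6%) had both PAM3 libraries above both untreated libraries, against 17% of all tested genes. Of the 335 that fell, 298 had the same sign and 266 (79.4%) had both PAM3 libraries below both untreated ones, against 30.2%. The median change of the risen genes was 1.11 after 25HC and 0.63 without it, and that of the fallen genes −1.08 and −0.50, but the genes were picked for their change after 25HC, which favours that side. The 2 comparisons share no library, although their fits share 1 estimate of spread. A call after 25HC thus favours genes whose PAM3 and untreated pairs agree within each group. That can raise the 70.6% and 79.4%, so all tested genes are not a like base for them. Lcn2 had 3670 and 4105 bp with PAM3 and 1346 and 1337 bp in untreated cells, close to its lengths with 25HC. Cxcl2 had 2744 and 2972 bp with PAM3 and 1826 and 2456 bp in untreated cells, Il6 had 1283 and 2696 bp and 1376 and 1130 bp, and Pla2g4a 11023 and 16041 bp and 9547 and 9232 bp, in each case shorter with PAM3 alone than in either 25HC then PAM3 library.

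Whether the response to PAM3 differed with and without 25HC was tested as the difference of both changes. By limma, 0 of 14589 genes passed (0%), with a smallest adjusted p of 0.0734 and 1437 genes at unadjusted p under 0.05, so for no gene is the response shown to differ, nor is it shown to be alike. Leaving out PAM3 A let 192 genes pass this test, leaving out 25HC then PAM3 A let 159 pass, and the counts were 16 with 25HC then PAM3 B left out and 1 with PAM3 B left out. Among the genes nearest the threshold, several had 1 of the 4 groups at 0 bp. Yars2, at 0 bp after 25HC then PAM3, had 1887 and 1947 bp with PAM3 and 1947 and 1917 bp in untreated cells, and Jph4 and Pycard, at 0 bp after 25HC, had peaks in all 6 other libraries. Psmd1, a proteasome subunit gene, had 8663 and 7951 bp after 25HC then PAM3 and 6440 and 6967 bp after 25HC, but 1912 and 1866 bp with PAM3 and 7263 and 8014 bp in untreated cells. Rab29, a GTPase gene of lysosomes, had 1399 and 1559 bp after 25HC then PAM3 and 2195 and 2361 bp after 25HC, but 1466 and 1518 bp with PAM3 and 0 bp in both untreated libraries. The differences of the changes were −2.28 ± 0.19 for Yars2, 1.99 ± 0.19 for Psmd1 and −2.56 ± 0.20 for Rab29 on the log2 scale (SE; limma adjusted p = 0.0734 for each).

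**Figure D4:**
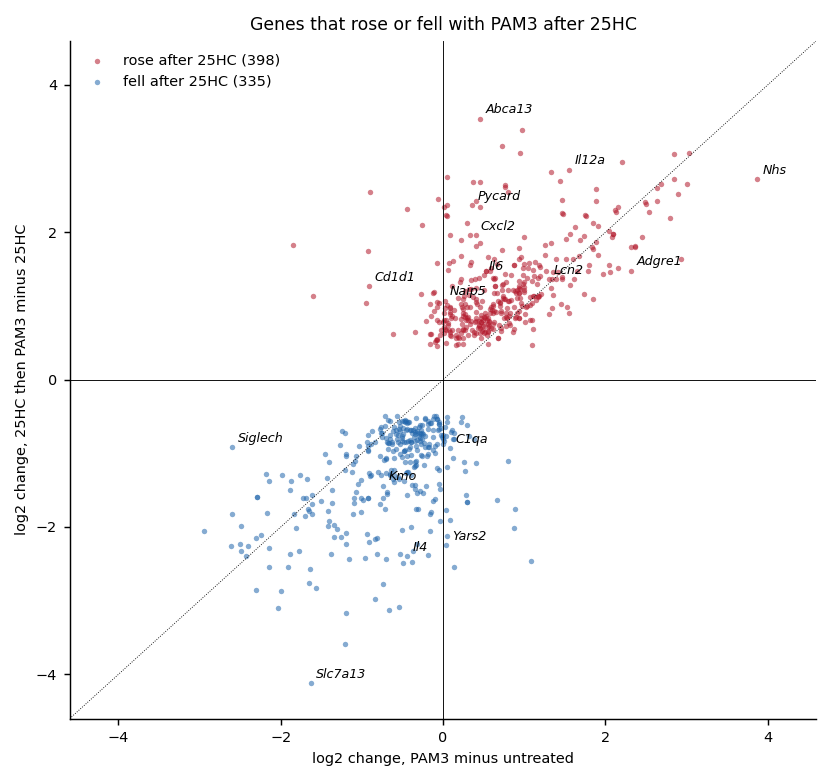
Log2 change after 25HC (25HC then PAM3 minus 25HC, vertical axis) against the change without it (PAM3 minus untreated, horizontal axis) for the 398 genes that rose, in red, and the 335 that fell, in blue, with equal changes on the dotted line. Of these genes, 363 and 298 lie where both changes have the same sign.

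By region, 10117 bins of 1 kb were gained, called in both 25HC then PAM3 libraries and in neither 25HC library, and 7288 were lost. A bin counted as called where peaks covered at least 500 bp of it. The gained bins made up 20.9% of the bins called in both 25HC then PAM3 libraries, and the lost bins 15.7% of those called in both 25HC libraries, while 32113 bins were called in all 4. Gained bins mostly lay away from promoters. On the 18 autosomes with start sites in the table, 5.3% of gained bins lay within 1 kb of a start site, 52.1% elsewhere in a gene body and 42.6% outside genes. Of lost bins 7.4% lay within 1 kb of a start site, and of bins called in all 4 libraries 32.1% did. Of bins called in at least 1 of the 4 libraries 16.0% did, with 50.7% elsewhere in a gene body and 33.3% outside genes. Of the peaks over gained bins, 40.2% in 25HC then PAM3 A and 39.4% in 25HC then PAM3 B touched no 25HC peak, so most of these peaks overlapped one. These shares are descriptions, as 2 libraries against 2 allow no test that passes.

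The libraries without 25HC had these bins in part. Of the gained bins, 33.9% and 55.8% were called in PAM3 A and B, against 15.7% and 11.8% in untreated A and B. Of the lost bins, 31.1% and 42.7% were called in PAM3 A and B, against 84.2% and 81.9% in untreated A and B. Bins called in all 4 libraries with 25HC were called in 88.4% to 94.4% of cases in each of those 4 libraries. In 35.1% of gained bins none of the 4 libraries without 25HC had a call. Bins gained in both comparisons numbered 2029, which is 20.1% of those gained after 25HC and 34.5% of those gained without it, and 2394 were lost in both, 32.8% and 30.2%. Bins that went opposite ways numbered 112 gained after 25HC and lost without it, and 49 the other way.

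**Figure D5:**
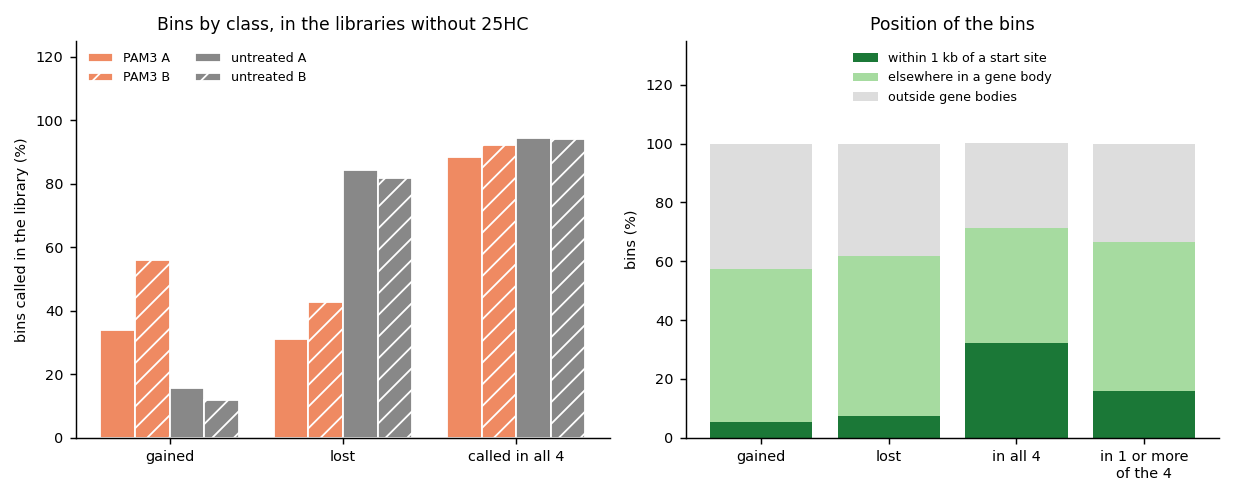
Left, the percentage of gained bins, lost bins and bins called in all 4 libraries with 25HC that were called in each PAM3 and untreated library, where gained bins reach 33.9% and 55.8% in the PAM3 libraries and 15.7% and 11.8% in the untreated ones. Right, the percentage of bins within 1 kb of a RefSeq start site, elsewhere in a gene body or outside gene bodies, with 5.3% of gained bins, 7.4% of lost bins and 32.1% of bins called in all 4 near a start site. Of bins called in at least 1 of the 4 libraries, 16.0% lay near a start site.

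Gained bins joined into 8184 runs, of which 255 spanned 3 or more bins and 3 spanned 5 or more. The longest lay on chromosome 9 (88272001 to 88278000), 49609 bp from Nt5e, which encodes the enzyme CD73 that makes adenosine. Peaks covered 5602 and 5291 bp of it after 25HC then PAM3, against 0 and 718 bp after 25HC. The next lay 12192 bp from Picalm, a clathrin assembly gene (chromosome 7, 90113001 to 90118000), with 4955 and 4939 bp against 0 bp in both, and inside Clec12a, an inhibitory lectin gene (chromosome 6, 129353001 to 129358000), with 4773 and 4721 bp against 0 and 467 bp. Runs of 4 bins were ranked by the difference in covered length, and 3 tied for the lead. They included one inside Cdk19, a kinase of the Mediator complex (chromosome 10, 40380001 to 40384000), and one 10281 bp from Mrpl39, a mitochondrial ribosome gene (chromosome 16, 84704001 to 84708000). Both were covered whole, 4000 bp in each 25HC then PAM3 library, against 0 bp in both 25HC libraries, as was one inside Nfkb1. The windows of Nt5e, Picalm, Clec12a and Cdk19 did not pass as a whole (limma adjusted p = 0.472, 0.0675, 0.17 and 0.107). The run near Mrpl39 lies outside its gene body, whose window nevertheless reached 5057 and 4849 bp against 1564 and 1571 bp (limma adjusted p = 0.0128), and the change was −0.11 with a window of 1 kb on either side.

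Lost bins joined into 6367 runs, of which 73 spanned 3 or more bins and 0 spanned 5. The longest were 5 runs of 4 bins. One lay in Aff1, a subunit of the super elongation complex (chromosome 5, 103719001 to 103723000), with 0 bp in both 25HC then PAM3 libraries against 3629 and 3580 bp after 25HC. Others lay in Maco1 (chromosome 4, 134836001 to 134840000), with 660 and 261 bp against 4000 bp in both, and in Slc7a13 (chromosome 4, 19835001 to 19839000), with 0 bp in both against 3555 and 3420 bp. Runs in Arrb1, the β-arrestin gene (chromosome 7, 99547001 to 99551000), and Aplp2, a relative of the amyloid precursor gene (chromosome 9, 31166001 to 31170000), had 0 and 746 bp against 3944 and 3552 bp, and 0 and 682 bp against 3710 and 3608 bp. The whole windows of Maco1 and Aff1 fell too, with 3170 and 2662 bp against 9109 and 8132 bp, and 14858 and 11269 bp against 24173 and 25740 bp (limma adjusted p = 0.0131 and 0.0366, with 0.0609 for Aff1 with the block), while those of Arrb1 and Aplp2 did not pass (limma adjusted p = 0.176 and 0.0617).

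At promoters, most genes that rose already had the mark. A RefSeq promoter, 250 bases before to 50 after the start, was found for 334 of the 398 risen genes, 267 of the 335 fallen and 11703 of all tested, and counted as covered with at least 150 bp in a peak. Promoters of 56.3% of the risen genes were covered in all 4 libraries, against 66.4% of all tested genes. In 36 risen genes (10.8%) the promoter was covered in both 25HC then PAM3 libraries and neither 25HC library, among them Pycard, Lcn2, Fpr1, Camp, Il12a, Upp1, Marco, Acod1, Mylip and Ptgs2, against 1.4% of all tested genes. In 35 fallen genes (13.1%) it was covered in both 25HC libraries and in neither of 25HC then PAM3, among them Il4, Ranbp6, Yars2, Rab19, Pgap3, Tk1, Siglech, Aff1 and C1qc, against 1.5% of all. These genes were called from the same peaks, so the shares describe where the change lay.

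Motifs were counted on both strands of those promoters. The NF-κB consensus was found in 9.8% of promoters of risen genes and 11.3% of fallen genes, against 10.4% of promoters of all tested genes. The AP-1 motif TGANTCA was found in 10.4% and 8.4%, against 5.6%, and the PU.1 motif GAGGAAGT in 5.4% and 4.1%, against 3.1%. The interferon-response motif GAAANNGAA was found in 6.8% and 7.2%, against 7.5%. Matches of different motifs may overlap, and a match is a string of letters, not a bound site.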

How the data were processed

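The submitters' processing notes name GSNAP, MACS2 2.1.0 and the build GRCm38 (mm10). Each deposited list gives start, end and 4 values per peak made by the authors: a score, a fold ratio over the peak caller's background, and −log10 p and −log10 q, of which the −log10 q was used to filter and the fold only to describe. No label or header states the control libraries or the calling thresholds. Without read counts the depth is unknown and no counting interval can be given.

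Called bp per gene window were computed from peak positions (Python 3.11.15), with gene bodies from RefSeq on GRCm38.p6. Log2 of called bp plus 500, minus each library's median, entered limma 3.58.1 in R 4.3.3 (empirical Bayes, trend and robust settings), with 4 group means over all 8 libraries and 4 residual degrees of freedom. P-values were adjusted by Benjamini-Hochberg over 14589 genes. Fold changes on this scale understate those of genes with little called length. Windows of 69.9% of tested genes overlap another's. In data simulated for 25HC then PAM3 against 25HC on these 14589 genes, the fit called 23 of 100 genes given a log2 change of 1. It called 70 of 100 given one of 2. All of these were in the right direction, and 8 of 14389 genes given no change were called. Noise was normal around 1 mean per gene and no group was set to 0 bp, so the simulation does not cover real calls with a group at 0.

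The labels give each letter to 1 mouse, so libraries of a letter are paired. Their deviations from group means correlated by −0.017 to 0.0304, and the fit without the mouse as a block is reported.

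Genes, lists and alternatives were chosen with earlier results of these data known. Genes named are drawn from the 10 smallest p per direction (overlapping windows and predicted genes skipped), the 6 largest changes per direction with at least 3000 bp, called members of 28 lists, 12 fixed genes, the 5 longest gained and lost runs, and the smallest p for the difference of responses. A few genes that these rules picked are not reported here.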

Additional observations from a re-analysis of the deposited data

Results flagged for a closer look

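No group holds enough libraries for a check of single outlying libraries. In 5 of the genes named, both 25HC then PAM3 libraries lay on one side of both 25HC libraries while both PAM3 libraries lay on the other side of both untreated libraries. The difference of the changes was 2.18 on the log2 scale for Cd1d1, 1.53 for Tlr4, 1.99 for Psmd1, −2.56 for Rab29 and 0.95 for Cxcl1. Tested by limma across all genes, it did not pass, with adjusted p = 0.0734 for Cd1d1, Tlr4, Psmd1 and Rab29 and 0.533 for Cxcl1. Cd1d1 had 4869 and 4633 bp after 25HC then PAM3 and 1807 and 1485 bp after 25HC, but 1027 and 1649 bp with PAM3 and 3046 and 2980 bp in untreated cells. Tlr4, the receptor for lipopolysaccharide, had 8609 and 10651 bp after 25HC then PAM3 and 6610 and 6822 bp after 25HC, but 2264 and 2943 bp with PAM3 and 6110 and 6283 bp in untreated cells. Over all 14589 genes tested, 532 lay above after 25HC and below without it, and 190 the other way.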

How the results depend on the processing

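Depth is unknown. The 733 called genes (398 rising, 335 falling) came to 281 (165 and 116) with the mouse as a replicate block, 360 (208 and 152) without median subtraction, 383 (219 and 164) with the same number of peaks, 1 (0 and 1) with only the 4 libraries with 25HC, and 0 (0 and 0) both with only peaks of −log10 q 5 or more and with the same covered length. Without 1 library they came to 108 to 814 (80 to 457 rising, 28 to 395 falling), with most falling without either 25HC then PAM3 library and most rising without either 25HC library. The other settings kept the counts within 1.5 times. Genes whose response differed, 0 as reported, came to 3 with a pseudocount of 100 bp and 5 with a window of 1 kb, and to between 0 and 192 without 1 library. The 10117 gained bins came to 5698 with only peaks of −log10 q 5 or more, and to 12788 to 19518 without 1 library; the 7288 lost bins to 10253 to 14555. The difference in covered length was 1.27 to 7.36 Mb without 1 library and −1.63 Mb with those stronger peaks. Of the 73 called genes named, 51 passed with the block, 1 with only the 4 libraries with 25HC and 54 without median subtraction, with no change of sign in any of these. With stronger peaks 11 of the 68 measured changed sign: Trem1 (−2.18), Cd14 (−0.02), Ltc4s (0.79), Sod2 (−0.47), C1qa (0.92), C1qc (0.05), Plk1 (0.93), Slc6a12 (−0.38), and Map3k7cl, Il4 and Slc7a13 (0.10 each). Other changes of sign were Tnf (−1.03), Nt5e (−1.91), Clec12a (−1.86) and Psmd1 (−0.51) there, Plk1 (0.46), Clec12a (−0.02) and Psmd1 (−0.44) with the same covered length, and Mrpl39 (−0.11) and Il12b (0.15) with a window of 1 kb. The cause was not tested.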

Other observations

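Several gained stretches of 4 bins outside the first 5 of the ranking lay inside an immune gene or had its start site as the nearest. They were picked after their values were seen. A stretch inside Nfkb1, which encodes the p50 subunit of NF-κB (chromosome 3, 135669001 to 135673000), tied with those of Cdk19 and Mrpl39, at 4000 bp in both 25HC then PAM3 libraries and 0 bp in both 25HC libraries, and was covered for 1014 and 2361 bp with PAM3 and 0 bp in both untreated libraries. A stretch on chromosome 2 (129432001 to 129436000) had F830045P16Rik as its nearest gene, at 21797 bp, and Il1b as its nearest start site, at 60862 bp. Peaks covered 3686 and 3915 bp of it after 25HC then PAM3 and 0 bp in both 25HC libraries. The window of Il1b itself did not pass. One inside Ly75, an endocytic lectin gene (chromosome 2, 60367001 to 60371000), had 4000 and 3835 bp after 25HC then PAM3 and 0 bp in all 6 other libraries.

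Among lost stretches, one inside Pdcd1lg2, the gene of the checkpoint ligand PD-L2 (chromosome 19, 29418001 to 29421000), had 0 bp in both 25HC then PAM3 libraries and 2873 and 2989 bp after 25HC, with 2797 and 3000 bp with PAM3 and 2929 and 2886 bp in untreated cells. Another 811 bp from Tmem176b (chromosome 6, 48830001 to 48833000) had 0 bp in both 25HC then PAM3 libraries and 3000 bp in each of the 6 others. Of 28 genes of adhesion and matrix proteases 15 had both 25HC then PAM3 libraries above both 25HC libraries, against 28.2% of all genes, and none passed by limma. Of 26 lysosome and proton pump genes 3 did, and none passed.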
